A study of Mus musculus with 4 samples.

Results

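The cells described here are the 336 cells that carry the cluster label Sus, for sustentacular, in the annotation deposited with droplet-based transcriptomes of single cells from the mouse main olfactory epithelium. They were taken by that label alone, out of 15859 retained cells and 21809 cell barcodes. The 4 libraries came from 4 male mice aged 8 weeks, labelled C57BL/6 (C57BL/6J in the study's methods), 1 library per mouse, with no treatment and no transgene, so the animals form a single group at rest. The dissected tissue was dissociated with papain, and nucleated live cells (positive for Hoechst, negative for DRAQ7) were sorted before droplet capture, with no marker of supporting cells in the sort. The 9 other retained labels were HBC1 and HBC2 (horizontal basal cells), GBC (globose basal cells), INP (immediate neuronal precursors), iOSN1 and iOSN2 (immature olfactory sensory neurons), mOSN (mature neurons), Mv1 and Mv2 (microvillar cells).

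Sustentacular cells are the columnar supporting cells of the olfactory epithelium. Their cell bodies line the apical side, they wrap the neurons' dendrites, seal the surface with tight junctions and project microvilli into the mucus. They are known for a high content of enzymes that modify inhaled chemicals: cytochrome P450 monooxygenases, fed with electrons by P450 oxidoreductase, add an oxygen, and transferases then couple the product to sulfate, glucuronic acid or glutathione for export.

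The Sus label was rare in each mouse. Mouse 1 gave 71 Sus cells, or 1.58% of its retained cells (Wilson 95% interval 1.26 to 1.99%), mouse 2 gave 114 (3.07%, 2.56 to 3.68%), mouse 3 gave 67 (2.23%, 1.76 to 2.82%) and mouse 4 gave 84 (1.80%, 1.46 to 2.23%). These intervals cover counting error only. The share in mouse 2 lay above the others, and its interval did not meet those of mice 1 and 4. No Sus cell shared its barcode with another Sus cell, and the barcode of 2 Sus cells also occurred in another library.

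Set against all other retained cells together, most of them mature neurons, Sus cells were slightly deeper. Their median count of unique molecular identifiers (UMIs, 1 per captured RNA molecule) was 6797, 5144, 7428 and 4784.5 in mice 1 to 4, against 6064, 4489.5, 6900 and 4212 over all other retained cells (mean log2 ratio 0.16 ± 0.04, SD, n = 4, higher in 4 of 4 mice, exact two-sided sign-flip p = 0.125, the smallest that 4 mice allow). The median share of mitochondrial UMIs was 2.24, 3.12, 2.74 and 3.03%, against 0.99, 1.44, 1.24 and 1.29% (log2 ratio 1.17 ± 0.05, SD, n = 4, higher in 4 of 4 mice, exact p = 0.125). By type, the median count was 5587 UMIs in Sus. It was higher in HBC2 (7186.5), GBC (9945.5), INP (7545.5), iOSN1 (6830.5) and iOSN2 (7301.5), and lower in HBC1, Mv1, Mv2 and mOSN (4861). The median mitochondrial share was 2.81% in Sus, 2.92% in Mv2, 2.27% in Mv1 and 1.18% in mOSN. The summed Sus counts behind each level below were 553027, 624512, 546922 and 454565 UMIs.

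Levels are given as UMIs per 10000 UMIs of the cells summed within a mouse. Because a UMI marks 1 molecule's 3′ end, levels of different genes were set side by side without a length correction. A gene was called higher when the Sus level was at least 2 times the mean of the other 9 types in each of the 4 mice, and lower when it was at most 1/2 of that mean in each. It was said to lead when Sus was at least 2 times the highest other type in each mouse. The cells had been clustered on these same genes, so these comparisons are descriptions without a test, and folds are geometric means over the 4 mice.

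The 3 genes that mark the label were all higher. Cyp2g1, a P450 of the nasal mucosa (chr7:26808892-26821205, plus strand, GRCm38), was at 68.6, 80.0, 76.5 and 60.4 UMIs per 10000 in the Sus cells of mice 1 to 4. The next type, HBC2, was at 16.5, 44.0, 15.4 and 26.8, below Sus in each mouse, but Cyp2g1 did not lead because in mouse 2 Sus was less than 2 times HBC2. The level was 25.6-fold the mean of the other types. Cyp1a2, the P450 best known from liver (chr9:57676937-57683703, minus strand), was at 13.6, 17.4, 18.1 and 12.6, 37.2-fold the mean of the others, and led over HBC2 at 3.49. Ermn, an actin-binding protein also known from myelin-forming cells (chr2:58045113-58052864, minus strand), was at 4.12, 4.39, 4.99 and 3.87, 9.37-fold the mean of the others, with HBC1 next at 2.42.

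Cell by cell, 303 of the 336 Sus cells (90.2%) held UMIs of at least 2 of the 3 markers and 7 held none. The same was true of 96 of 544 HBC2 cells and of 5 of 10519 mature neurons. With each cell thinned to 3000 UMIs, which left out 34 of the Sus cells, Cyp2g1 was found in 86.5% ± 1.5 of Sus cells (mean ± SD of 4 mice; 89.0% unthinned) and in 1.20% ± 0.19 of mature neurons (2.05% unthinned), a type in which it serves as a background level. Median depth before thinning was 5587 UMIs in Sus and 4861 in mOSN.

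**Figure D1:**
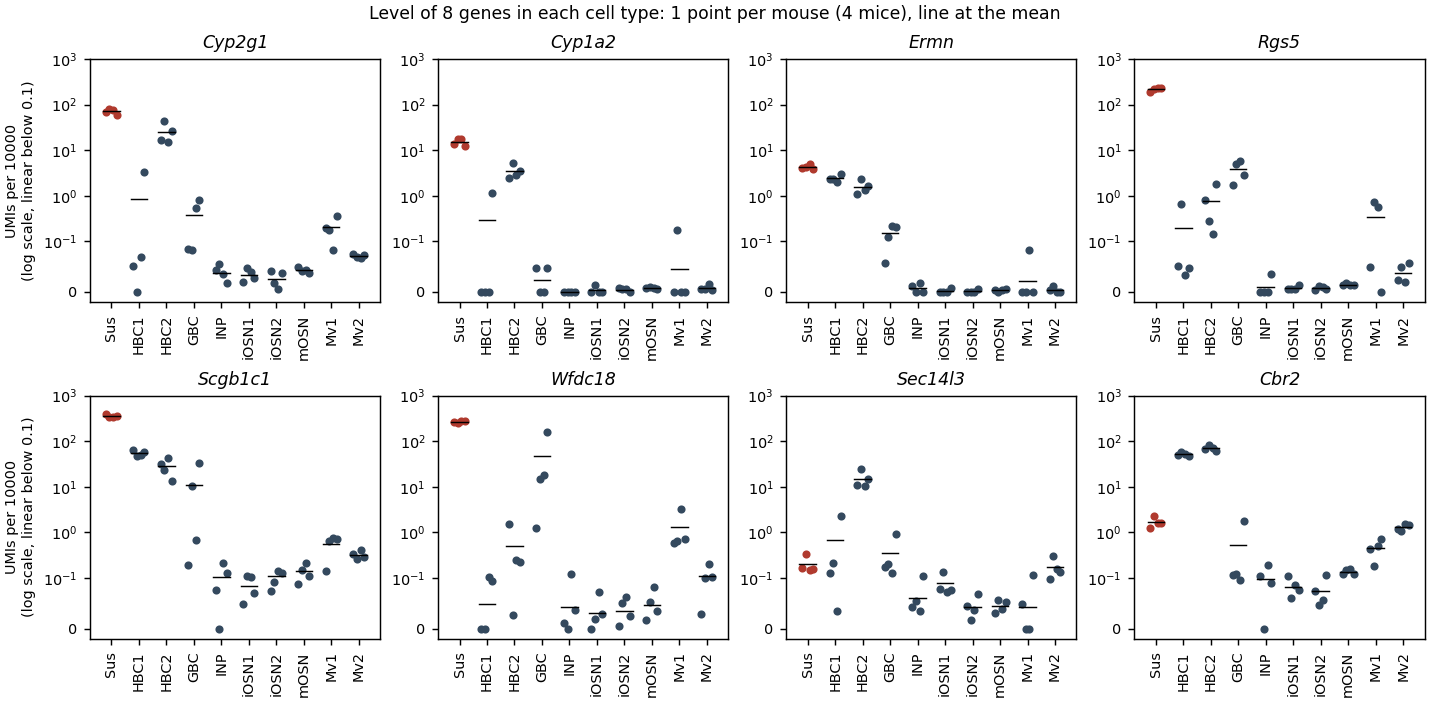
Level of 8 genes (UMIs per 10000, log scale that is linear below 0.1) in each of the 10 cell types, with 1 point per mouse and a line at the mean of the 4 mice; Sus is in red. Cyp2g1 and Cyp1a2 were highest in Sus with HBC2 next, Rgs5 stood 62-fold above the next type, and Sec14l3 and Cbr2 were far higher in HBC2 (means 15.2 and 70.8) than in Sus (0.200 and 1.69).

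Beyond these 3 genes, the label was only partly borne out. Of 15 other textbook sustentacular genes that passed the filter on low levels (a mean of 0.1 UMIs per 10000 over the 10 types), 6 were higher, 6 were lower and 3 were neither, against 471 of 10011 genes higher (4.70%) and 1898 lower (19.0%) over all genes tested. The higher ones were Cyp2a5 at 107 (97.6, 127, 102 and 102 in mice 1 to 4), the keratins Krt18 at 46.9 and Krt8 at 27.6, the sulfotransferase Sult1c1 at 21.9, Lypd2 at 7.93 and Acsm4, a medium-chain fatty acid ligase, at 3.65. The median log2 ratio of the list was 1.01, against -0.45 over all genes.

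The 6 lower ones were Sec14l3, Cbr2, Muc2, Gldc, Hepacam2 and Cyp4b1. Sec14l3, a lipid-transfer protein, was at 0.163, 0.336, 0.146 and 0.154 in Sus and at a mean of 15.2 in HBC2. Cbr2, a carbonyl reductase, was at a mean of 1.69 ± 0.429 (SD, n = 4) in Sus and at 70.8 in HBC2. Muc2, a gel-forming mucin, had a Sus mean of 0.0040, and Gldc and Hepacam2 had Sus means of 0.0485 and 0.110. Cyp4b1, another P450, was at 0.00452 (1 UMI) in Sus and at 1.07 in HBC2. Outside this list, Sox2, a transcription factor of supporting cells and their progenitors, was lower too. It was at 0.0733 in Sus and at 3.39 in HBC1. The 336 cells are therefore called by their label, Sus, with no other name put in its place.

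Part of the missing genes lay in cells that had first been grouped with Sus. A preliminary clustering in the deposited annotation also held a cluster called Sus. Of its cells, 336 kept the label, 132 became HBC2, 4 became GBC and 61 were removed by the quality filters. The 132 HBC2 cells (52, 16, 29 and 35 per mouse) were compared with Sus after their values had been seen, and no test was made. Their Cyp2g1 was at 52.9, 112, 42.4 and 63.4 UMIs per 10000 and their Cyp2a5 at 124, 170, 98.4 and 92.3, so both overlapped the Sus levels. The 412 remaining HBC2 cells had a mean Cyp2g1 level of 0.0263 and Cyp2a5 of 2.63.

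Of the genes lower in Sus, 5 were looked at in these 132 cells. Sec14l3 was at 34.0, 62.4, 27.3 and 35.0, Cbr2 at a mean of 71.2, Sox2 at 3.09, Muc2 at 6.63 and Cyp4b1 at 2.41. Cbr2 and Sox2 were not particular to them, since the remaining HBC2 cells held 70.9 and 2.43, whereas Sec14l3 and Muc2 were at 0.419 and 0.00171 there. The 132 cells were not alike: 95 of them held a UMI of at least 2 of the 3 Sus marker genes and the others did not. Bpifa1 was at 357, 0, 848 and 276 over all 132 cells but at 72.6, 0, 0.191 and 0 in the 95. Reg3g was at 116, 1.12, 118 and 104 over all and at 17.3, 1.12, 0.877 and 0.771 in the 95. Sec14l3 (a mean of 49.5) and Muc2 (8.76) were present in the 95 cells. The basal keratin Krt5 was at a mean of 0.0384, against 11.6 in the remaining HBC2 cells and 0.00457 in Sus, and Krt14 at 0.00526, 13.6 and 0.0100 in the same order. Other genes that were higher in Sus were lower there than in Sus: Rgs5 at 0.800, Wfdc18 at 1.41, Msln at 0.462, Chil6 at 0.101, Sox9 at 0.234, Vmo1 at 3.85, Ltf at 5.01 (0 to 10.9 over mice, but a mean of 0.210 in the 95 cells) and Aqp5 at 5.47. No Sox10 UMI was found in them.

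The choice of these 132 cells set how far the P450 markers stood out. With them left out of HBC2, the Sus level of Cyp2g1 was 141-fold that of the highest other type in place of 3.03-fold, that of Cyp1a2 136-fold in place of 4.55-fold, and that of Cyp2a5 29.1-fold in place of 2.35-fold. Ermn stayed at 1.81-fold in place of 1.80-fold. The number of higher genes was 479 in place of 471, and Sec14l3 was no longer lower (log2 ratio 0.09).

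**Figure D2:**
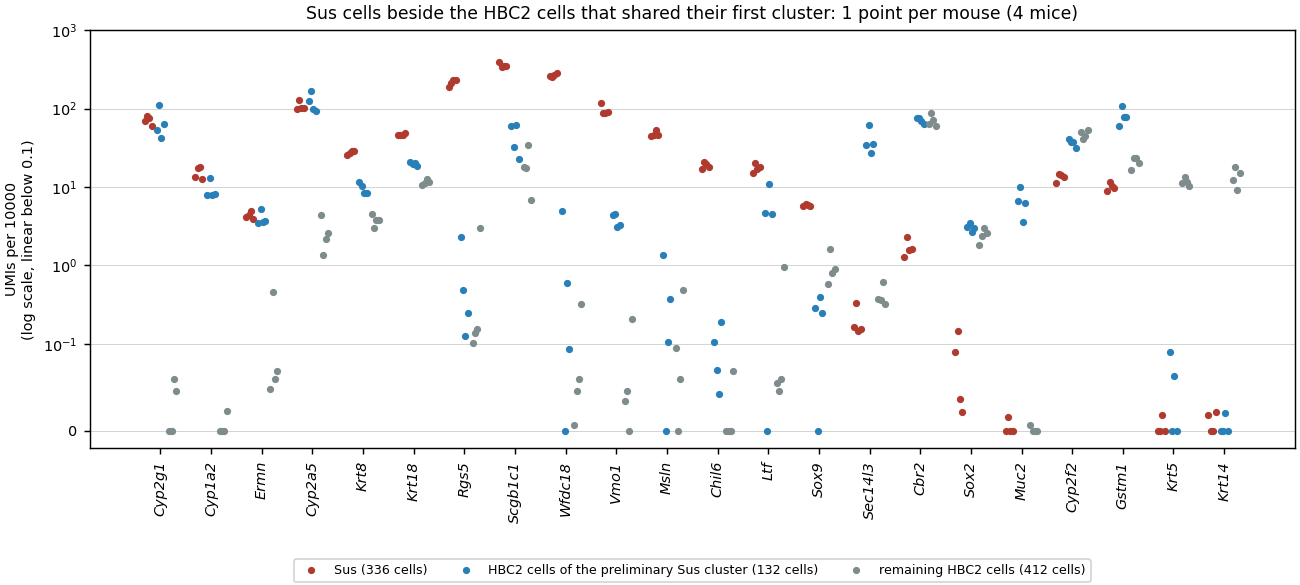
Level of 22 genes (UMIs per 10000, log scale that is linear below 0.1) in Sus cells (red), in the 132 HBC2 cells of the preliminary Sus cluster (blue) and in the 412 remaining HBC2 cells (grey), 1 point per mouse; points drawn at 0 had no UMI. Cyp2g1 and Cyp2a5 overlapped between red and blue. Cyp1a2 was lower in blue than in red within each mouse, though the ranges over mice met. Rgs5, Wfdc18, Msln and Chil6 were higher in red than in both other groups, and Sec14l3, Sox2 and Muc2 were higher in blue than in red.

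Most of the genes called higher had their highest level in Sus. Of the 471 higher genes, Sus had the highest mean of all types for 372, and another type lay above Sus for 99. The highest other type, whether above or below Sus, was HBC2 for 142 of the 471, HBC1 for 107, Mv2 for 76 and Mv1 for 69. Over 9983 tested genes other than receptors, the Spearman correlation of the Sus levels with those of another type averaged 0.769 for HBC2 (0.750 to 0.786 over mice), 0.696 for Mv2, 0.671 for HBC1 and 0.450 for mOSN. These correlations run across genes, which are not independent replicates, and types of a mouse share its library. In all, 100 genes (0.999%) led in Sus, of which 87 had a mean of at least 1 UMI per 10000. A gene with a mean below 0.1 in the other types passed the filter only through its Sus level. For such a gene a higher call was nearly bound. Among the leading genes named below, this held for Chil6, Msln and Rgr, for example, with means of 0.0159, 0.0408 and 0.00614 over the other types. It did not hold for Rgs5 (0.584) or Vmo1 (0.268).

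Where the other types were pooled by cells rather than averaged, which lets mature neurons set the comparison, 929 genes were higher and 1984 lower, so that higher genes made up 31.9% of the calls in place of 19.9%. TMM scaling and DESeq2 size factors moved the median log2 ratio of all genes from -0.45 to -0.26 and -0.24.

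Among the 25 genes with the highest ratio to the next type, Rgs5 and Vmo1 had the highest levels. Rgs5, a regulator that speeds the switching off of G proteins and is otherwise known from pericytes (chr1:169655501-169695813, plus strand), was at 187, 215, 231 and 233 UMIs per 10000. It was found in 100% of Sus cells and in 0.409% ± 0.108 of thinned mature neurons (0.767% unthinned). The next type was GBC at 1.73, 5.10, 5.89 and 2.82, a 62.0-fold difference over the highest type. Vmo1, a secreted protein (chr11:70513516-70514616, minus strand), was at 117, 88.0, 86.9 and 90.1, with HBC2 next at 1.47.

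Msln (mesothelin, a surface glycoprotein) was at 44.2, 46.6, 52.8 and 46.6, with HBC2 next at 0.251. Chil6, a secreted chitinase-like protein, was at 17.0, 20.9, 19.9 and 17.9, with HBC2 next at 0.0486. Lactoferrin (Ltf), an iron-binding antimicrobial protein, was at 15.2, 20.2, 17.2 and 17.8, with HBC2 next at 1.99. The chemokines Cxcl5 and Cxcl17 were at means of 4.83 and 6.15. Their levels varied little between mice compared with the distance to the next type.

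Other leaders encode transporters, enzymes and proteins of various kinds. Slc5a8 (sodium-coupled monocarboxylate transporter) was at 8.02 ± 0.620 (SD, n = 4) and Slc5a9 (sodium-coupled sugar transporter) at 2.65 ± 0.549, next to 0.548 in HBC2 and 0.115 in HBC1. The transporter-like Svopl was at 10.5, the disulfide-forming oxidase Qsox1 at 4.83, the glucosidase Ganc at 4.12, the kinesin Kifc3 at 3.11 and Ggt1, a γ-glutamyltransferase that opens the breakdown of glutathione, at 1.46. The retinal-binding receptor Rgr was at 3.36, with HBC2 next at 0.0303. Stard13, Cpsf4l, Fam174b, BC006965 and Dpysl4 led at means between 1.04 and 1.84.

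The Dcpp genes, which encode secreted demilune and parotid proteins, varied between mice. Dcpp3 was at 16.2, 26.4, 37.1 and 56.3, Dcpp1 at 2.13, 5.60, 2.91 and 3.28 and Dcpp2 at 1.92, 2.74, 3.55 and 4.18. The 3 genes are near-identical copies, so the split of UMIs among them is uncertain. Only 25.6% of Sus cells held a Dcpp3 UMI, and the 16 cells with the most held 68.5% of all its UMIs.

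**Figure D3:**
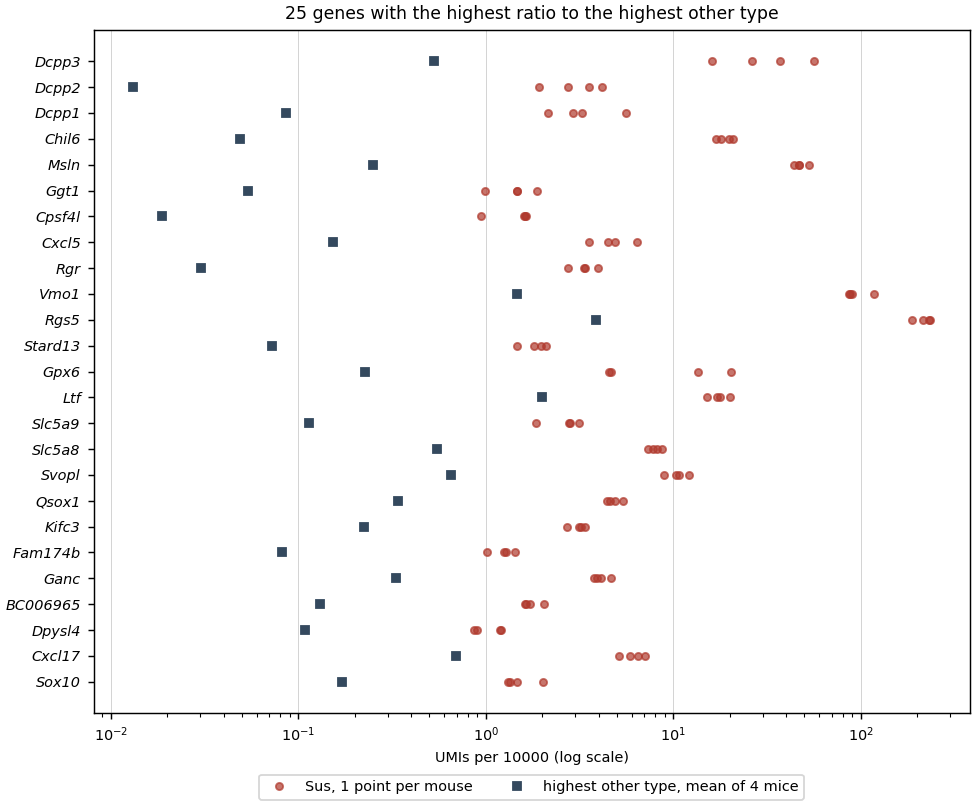
The 25 genes with the highest ratio of Sus to the highest other type, with the Sus level in each of the 4 mice (red points) and the mean of the highest other type (dark squares), in UMIs per 10000 on a log scale. All Sus points lay to the right of the square of their gene, from Msln (44.2 to 52.8 against 0.251) to Sox10 (1.31 to 2.03 against 0.172). Genes with a mean below 0.1 over the other types, Msln and Sox10 among them, passed the filter only through Sus. For these a higher call was nearly bound.

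The 10 most abundant genes, mitochondrial and ribosomal protein genes aside, took 14.9% of Sus UMIs. Scgb1c1, a small secretoglobin (chr7:140845547-140846769, plus strand), took 3.58% at 392, 343, 347 and 349 UMIs per 10000, and led over HBC1 at 54.6. Wfdc18, a secreted protein with a disulfide-rich WAP domain (chr11:83709015-83711348, plus strand), took 2.68% at 260, 256, 272 and 282. It was not a leader because GBC held it at 1.26, 14.9, 18.6 and 156.5. Then came Rgs5, Malat1 (154), Cyp2a5 (107), Vmo1, the metallothionein Mt1 (87.4, leading), the ferritin subunit Fth1 (75.1), Cyp2g1 and Tmsb4x (58.8). Malat1 and Tmsb4x were abundant without being higher than in the other types. In mature neurons, the same libraries' Scgb1c1 level was 0.141 and that of Wfdc18 0.0468.

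The promoters of Rgs5, Wfdc18 and Cyp1a2 are printed because Rgs5 was found in every Sus cell, Wfdc18 varied widely among them and Cyp1a2 is a marker of the label. Each window runs from 250 bases before to 50 bases after the start site (RefSeq, GRCm38.p6), in the direction of the gene, 5′ to 3′. Capitals mark ACAAT or its reverse complement ATTGT, the core letters shared by binding motifs of the SOX family, to which Sox9 and Sox10 belong.
Rgs5, chr1:169655251-169655550, plus strand: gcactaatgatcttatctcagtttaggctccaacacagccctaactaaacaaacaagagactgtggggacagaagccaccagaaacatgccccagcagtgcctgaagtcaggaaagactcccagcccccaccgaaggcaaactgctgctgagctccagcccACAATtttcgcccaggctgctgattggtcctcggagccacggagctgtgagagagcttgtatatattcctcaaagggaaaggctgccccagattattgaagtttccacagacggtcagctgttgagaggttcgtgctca
Wfdc18, chr11:83708754-83709053, plus strand: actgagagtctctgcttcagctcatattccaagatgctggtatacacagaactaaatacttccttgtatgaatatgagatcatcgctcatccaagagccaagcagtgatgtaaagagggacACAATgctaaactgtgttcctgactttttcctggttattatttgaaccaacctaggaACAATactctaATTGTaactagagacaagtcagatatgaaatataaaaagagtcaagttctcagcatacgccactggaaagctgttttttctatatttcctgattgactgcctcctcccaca
Cyp1a2, chr9:57683606-57683905, minus strand: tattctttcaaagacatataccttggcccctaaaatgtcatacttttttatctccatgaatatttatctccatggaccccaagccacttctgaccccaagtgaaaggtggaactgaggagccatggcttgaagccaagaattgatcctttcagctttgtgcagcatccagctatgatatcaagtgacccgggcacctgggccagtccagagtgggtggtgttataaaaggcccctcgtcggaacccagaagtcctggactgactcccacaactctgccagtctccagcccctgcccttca

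The Rgs5 window held 1 match, the Wfdc18 window 3 and the Cyp1a2 window 0. Of 32851 mouse promoters of the same length, 31.0% held ACAAT on either strand. Among the 25 leading genes, 18 had windows in the table, and 5 of their 22 windows (22.7%) held it. GCGTG, the core of the motif bound by the aryl hydrocarbon receptor, occurred in 7 of the 22 (31.8%) and in 32.4% of all promoters. A match is a description of letters and not a binding site.

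Enzymes of oxidative metabolism were high in a few members rather than across families. Of 13 P450 genes that passed the filter (of 36 in the matrices), 4 were higher, 2 lower and 7 neither, with a median log2 ratio of -0.15 against -0.45 over all genes. For this list and those of the next paragraphs, the shares over all genes tested were 4.70% higher and 19.0% lower. The higher ones were Cyp2a5, Cyp2g1, Cyp1a2 and Cyp3a13 (0.597, 1.09, 0.439 and 0.374), while Cyp2f2 was at 13.4 in Sus and 43.2 in HBC2. The electron donors and their partners were higher in 5 of 9 (median 1.17): cytochrome b5 (Cyb5a) at 20.9 ± 1.18 (SD, n = 4), Pgrmc1 at 8.60, P450 oxidoreductase (Por) at 6.26, 9.13, 8.94 and 6.36, Cyb5r3 at 4.43 and Alas1, which starts haem synthesis, at 2.74. HBC2 held Por at 9.30, so that Sus was at 0.814-fold of it, but without the 132 HBC2 cells of the preliminary cluster Sus was at 1.36-fold of the highest other type. The haem oxygenase Hmox2 was lower.

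Other oxidoreductases and hydrolases were split. Of 31 tested, 5 were higher, 10 lower and 16 neither (median -0.02). The higher ones were the aldehyde and aldose-reducing Akr1a1 at 15.8, the aldehyde dehydrogenase Aldh2 at 13.3, the carboxylesterase Ces1d at 12.1, the flavin monooxygenase Fmo2 at 4.22 and the epoxide hydrolase Ephx1 at 2.94. The lower ones included Adh7, at 0.0137 in Sus and 12.0 in HBC2, Aldh3a1, at 0.00914 and 6.30, and the quinone reductase Nqo1 at 0.356.

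Conjugating enzymes had both high and low members as well. Of 9 glucuronosyl- and sulfotransferase genes, 4 were higher (Sult1c1; Sult1e1, the oestrogen sulfotransferase, at 9.40, 10.1, 9.87 and 10.8; Ugdh, which makes the glucuronic acid donor, at 3.79; Papss2, which makes the sulfate donor, at 1.05) and 4 lower. The glucuronosyltransferase Ugt2a1, known from olfactory mucosa, was at 0.342 and did not pass the filter. Of 26 glutathione genes, 7 were higher and 3 lower (median 0.33). Ggt1 and Abcc3 passed the filter only through their Sus level and were bound to be among the higher. Gstm5 was at 20.2, 23.2, 22.7 and 22.8 and Gsta3 at 11.5, while Mgst1 (15.3, 15.6, 15.7 and 14.8), Ggt7 (7.55) and Ggt1 led. Gstm1, the abundant form of the basal cells, was at 10.1 in Sus and 47.7 in HBC1. Gsto1, Mgst3 and the glutathione-synthesising Gclc were lower.

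Regulators of these enzymes stood at low levels. Of 12 transcription factors of xenobiotic and oxidant response, Cebpb was higher (0.793) and Foxa1 lower (0.0177). The other 10 were neither, among them Ahr at 0.172 and Nfe2l2 at 1.55. Among 23 Notch pathway genes and supporting cell regulators, 5 were higher and 5 lower (median 0.34). Elf5, an ETS factor of secretory epithelia, led at 5.75, 5.44, 4.99 and 4.60, with HBC2 next at 1.10. Otx2 was at 4.41, Ehf at 2.61, the Notch target Hey1 at 2.14 and Notch2 at 0.527. The Notch target Hes1 was at 2.82, 3.68, 4.19 and 4.07, below HBC1 at 6.79. The ligands Jag2 and Dll1 were lower.

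Of 31 junction, keratin and microvillus genes, 12 were higher, 3 lower and 16 neither (median 0.99). The higher ones included the simple-epithelium keratins Krt18 (46.5, 45.6, 46.4 and 49.4), Krt8 and Krt23, which led at 5.77, the claudins Cldn3 (10.9), Cldn10 (5.64) and Cldn4 (0.785), E-cadherin (Cdh1, 3.20), occludin (Ocln, 0.454), ezrin (Ezr, 6.40), its partner Slc9a3r1 (2.59) and Ermn. Krt19, Krt7 and moesin (Msn) were lower. The epithelial adhesion gene Epcam, at 13.7, was neither.

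Water channels and ion transporters had 7 of 21 members higher, 4 lower and 10 neither (median 0.29). The water channel Aqp5 led at 14.4, 15.7, 17.7 and 18.5, with HBC1 next at 6.01. Aqp11 (2.02), the chloride channel-related Clic6 (5.26) and the calcium-gated potassium channel Kcnn4 (1.50) also led, and Aqp4 was at 7.23, as in HBC1 (7.72). The anion exchanger Slc4a2 and the scramblase Ano6 completed the higher set, in which Aqp11 and Kcnn4 passed the filter only through their Sus level. The sodium pump subunit Atp1b1, at 6.68, was neither. Scnn1a, a subunit of the epithelial sodium channel, was lower at 0.0878, against 5.75 in Mv2. No UMI of the carbonic anhydrase Car12 was found in Sus, which allows up to 0.0138 UMIs per 10000 over the 4 mice, against 5.70 in HBC1.

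Of 12 nutrient and solute transporters, 3 were higher (Slc3a2 at 5.09, Slc16a11 at 4.64 and the peptide transporter Slc15a2 at 4.29) and 5 lower (median -1.21), among them the taurine transporter Slc6a6 at 1.93 against 40.6 in HBC1. Of 24 phagocytosis and lysosome genes, 3 were higher (Cd63 at 11.1, Lamp2 at 3.97 and Ctsh at 1.17) and 5 lower (median -0.08). The phagocytic bridge Mfge8 was lower at 0.0603. Of 31 lipid genes, 6 were higher and 5 lower (median -0.24), with the acyl-CoA dehydrogenase Acadm at 3.27 and the lipid-droplet coat Plin2 at 1.05. Over all genes tested, 4.70% were higher and 19.0% lower, so the lower shares of the lysosome and lipid lists were close to that of all genes.

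Of 13 receptor and calcium signalling genes, 4 were higher (the phospholipase Plcb4 at 1.52, the receptor kinases Erbb3 at 1.49 and Erbb2 at 0.507, and the adenosine receptor Adora2b, which led at 0.877 and passed the filter only through Sus) and 5 lower (median -0.58). Of 6 coronavirus entry genes, the aminopeptidase Anpep, which passed only through Sus, led at 1.86, none was lower and 5 were neither (median 0.21). Of 9 zonal genes, 2 were higher and 4 lower (median -0.64). Over all genes tested, the shares were 4.70% higher and 19.0% lower. Of 14 genes of acute stress in dissociated cells, Ier3 was higher at 6.25, Egr1 was lower at 1.92 (but not against the other types pooled by cells, log2 ratio 0.23) and 12 were neither (median -0.29).

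**Figure D4:**
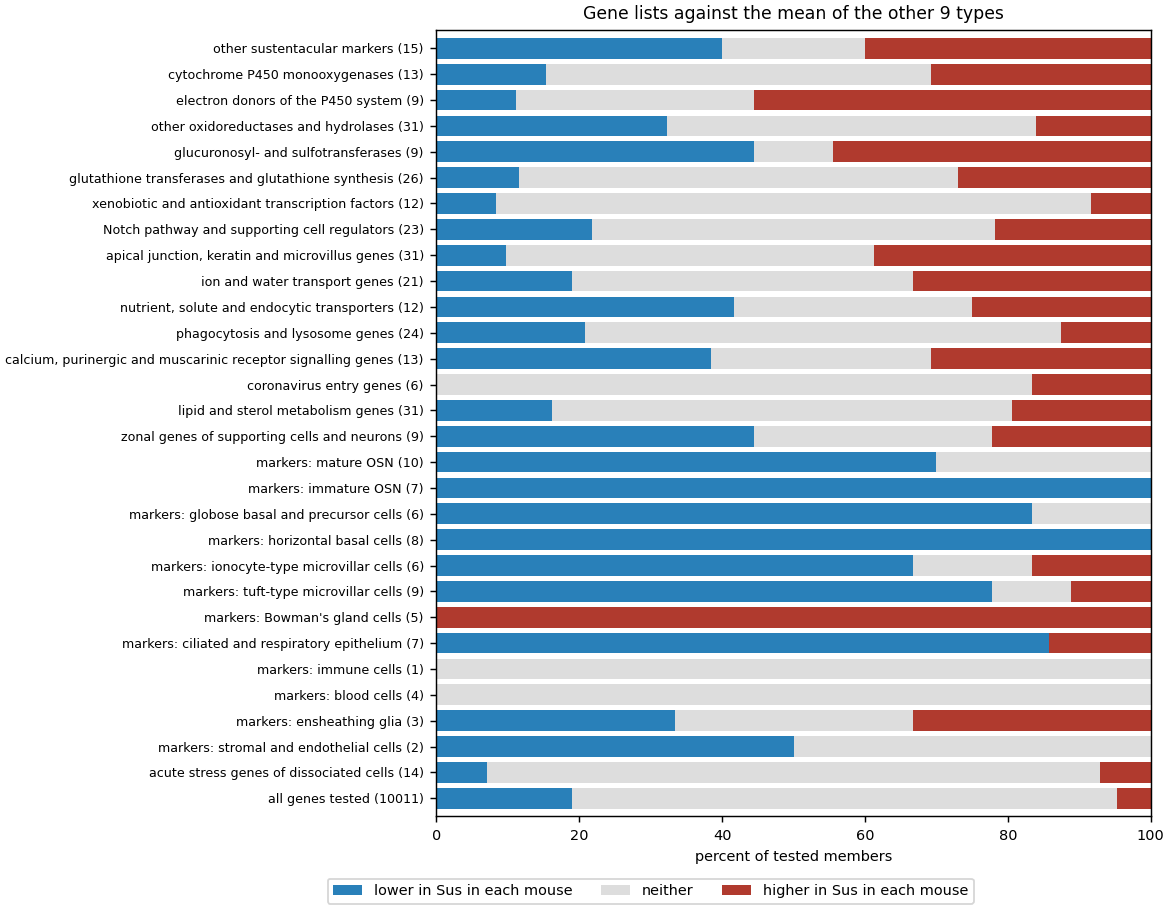
Share of the tested members of each gene list (number tested in parentheses) that was lower (blue), neither (grey) or higher (red) in Sus than the mean of the other 9 types in each mouse, in percent, with all 10011 tested genes in the bottom bar (19.0% lower, 4.70% higher). The gland list was red throughout, but holds 5 of 12 genes, 2 of which passed the filter only through Sus. The lists of horizontal basal cells and immature neurons were blue throughout. This was nearly bound, as their genes mark types that belong to the comparison mean. Most enzyme lists held both.

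Most markers of other cell types were low in Sus, and some gland markers were not. Of the 12 members of the Bowman's gland list, 5 passed the filter and were higher, Sox10 and Gpx6 passing it only through their Sus level, so that these were bound to be higher. The 4 that led were Ltf, Aqp5, Gpx6, an olfactory glutathione peroxidase, at 20.4, 4.64, 13.5 and 4.55, and the transcription factor Sox10 at 1.46, 1.31, 2.03 and 1.34. The fifth, Sox9, was at 5.68, 6.08, 5.83 and 5.74, below Mv1 at 10.3. Another 7 members of the list did not pass the filter. No UMI of Prb1 or Dmbt1 was found in Sus (up to 0.0138 UMIs per 10000 each), and the gland mucin Muc5b had a mean of 0.0992. The summed level of the 12 genes ranged from 48.0 to 57.2 over mice. Gpx6, a part of this sum, had a UMI in only 5.36% of Sus cells, and 16 cells held 99.9% of its UMIs.

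The 8 horizontal basal cell markers were all lower, with a summed level of 0.132 to 0.384 and no Trp63 UMI. The 7 immature neuron markers were also all lower (1.52 to 3.17 summed). Of 6 globose basal and precursor markers, 5 were lower, with no UMI of Neurog1 or Neurod1. The genes of these lists mark types that belong to the comparison mean, so that a lower call was nearly bound. Of the 9 tuft-type microvillar markers, 7 were lower, but Dclk1, a kinase that binds microtubules, led in Sus at 12.3, 15.7, 15.5 and 13.4. Of the 6 ionocyte-type markers, 4 were lower, and Atp6v1b1, a proton pump subunit, led at 1.81. Microvillar cells belong to the comparison mean too, so that the lower calls of both microvillar lists were nearly bound. Of 7 markers of ciliated and respiratory epithelium, 6 were lower and Scgb1c1 was the only higher one.

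Blood, immune, glial and stromal lists were low, with summed levels of 0.127 to 1.01, 0.088 to 2.18, 1.35 to 2.10 and 0.457 to 0.560, most of the glial sum coming from Sox10. Of the 10 mature neuron markers, 7 were lower and 3 neither (summed level 10.7 to 20.2, none at 0). A lower call was nearly bound here as well, because mature neurons are part of the comparison mean. Omp was at 1.43, 5.36, 2.94 and 4.42 in Sus, at 72.1 in mOSN and at 3.21 and 4.24 in HBC1 and HBC2, but at 0.822 in Mv2. In Sus, the 16 cells with the most Omp UMIs held 90.5% of them. Without the 35 Sus cells with the highest share of mature neuron markers, 477 genes were higher and 2095 lower, in place of 471 and 1898. Of the 185 genes chosen by rule, 172 then stayed, 13 moved by more than the spread between mice and 0 reversed. The part of the 16 cells themselves was not tested.

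The Sus cells differed among themselves, over a range that depended on the gene. Per cell, Rgs5 ran from 126 to 347 UMIs per 10000 between the 10th and 90th percentile. Wfdc18 ran from 1.37 to 642 with a median of 123, and 28 cells held none of it. Scgb1c1 ran from 34.9 to 707. Cyp2g1 ran from 0 to 160, with 37 cells holding no UMI, and Sult1c1 from 0 to 56.6.

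Within a mouse, the P450 genes went together across cells. Spearman's rho of Cyp2g1 with Cyp2a5 averaged 0.622 over the 4 mice (0.528 to 0.726), with Msln 0.546 and with Cyp1a2 0.478. Wfdc18 went with Ltf (0.505) and Clu (0.349), whereas Cyp2g1 and Wfdc18 had a rho of -0.18 (-0.25 to -0.13). These are descriptions over the 67 to 114 Sus cells of a mouse, which share a library and differ in depth, on pairs picked after the data had been seen.

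A very small group of Sus cells held nearly all Bpifb3 UMIs. Bpifb3, which encodes a BPI-fold secreted protein, had UMIs in 6.25% of Sus cells, and 9 cells held 6001 of its 6022 UMIs (4, 1, 2 and 2 cells in mice 1 to 4). Together these 9 cells, grouped by that count after the data had been seen, held 0 Cyp2g1 UMIs, 1 Msln UMI and 2 Sox10 UMIs. Their Rgs5 level was 127, their Gpx6 level 109 and their Scgb1c1 level 1345 UMIs per 10000, against 223, 1.62 and 306 in the 315 cells with no Bpifb3 UMI. The uneven Gpx6 levels of the mice rested on 5.36% of Sus cells.

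To test variation within Sus on samples, the cells were divided by Acsm4, known as a zonal gene of supporting cells, with each cell thinned to 3000 UMIs. This gave 143 Acsm4-positive cells (28, 43, 35 and 37 per mouse) and 159 Acsm4-negative cells (42, 51, 29 and 37). UMI sums of both groups were compared within mice by edgeR's quasi-likelihood test with the mouse as a block. All cells compared carry the same label, and Acsm4 itself was left out of it. Of 3938 genes tested, 157 passed an adjusted p of 0.05 (3.99%), 55 higher in Acsm4-positive cells (1.40%) and 102 lower (2.59%). Of these, 54 and 94 went the same way in all 4 mice. Pooled over mice, median depth was 5919 UMIs in positive and 6217 in negative cells. In mice 1 to 4 it was 6868, 5477, 7513 and 5089 in positive cells, against 6762, 5308, 7730 and 4878 in negative cells. The pooled median mitochondrial share was 3.16% in positive and 2.48% in negative cells.

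Sult1c1, Gstm5 and Cyp2a5 rose in Acsm4-positive cells. Sult1c1 was at 32.8, 35.3, 37.2 and 30.3 UMIs per 10000 in the positive cells of mice 1 to 4, and at 14.6, 8.12, 11.9 and 11.7 in the negative cells. No value of 1 group reached the other (log2 difference 1.48 ± 0.14, SE, edgeR adjusted p = 6.13e-05). Gstm5 was at 30.2, 31.5, 29.5 and 31.4 against 13.3, 15.4, 15.3 and 14.3 (0.98 ± 0.09, adjusted p = 6.13e-05). Cyp2a5 was at 133, 158, 141 and 136 against 74.2, 101, 57.9 and 65.8 (0.86 ± 0.11, adjusted p = 0.000519).

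Of the 3 label markers, Cyp2g1 (0.81 ± 0.11, adjusted p = 0.00114) and Cyp1a2 (0.51 ± 0.11, adjusted p = 0.0186) rose, and Ermn did not pass (0.15 ± 0.12, adjusted p = 0.644). Of 5 P450 genes tested, 3 were higher (these 2 markers and Cyp2a5) and Cyp3a13 was lower (-1.59, lower in 3 of 4 mice, edgeR adjusted p = 0.0195). Of 6 glucuronosyl- and sulfotransferase genes, 3 were higher, Sult1c1 among them, and none lower. Of 17 glutathione genes, 3 were higher and none lower. Over all genes tested, 1.40% were higher and 2.59% lower. Por rose too (0.40 ± 0.10, adjusted p = 0.0452). The calls of Por and Cyp1a2 were less firm, as edgeR's adjusted p of Por was 0.0831 to 0.288 without 1 mouse each and 0.26 without the mouse as a block, and that of Cyp1a2 was 0.0628 without mouse 2, 0.183 without mouse 3 and 0.148 without the block. Msln was at 57.6, 66.8, 63.0 and 58.1 against 34.9, 28.1, 41.4 and 33.9 (0.75 ± 0.11, adjusted p = 0.00214). Others that rose were Smoc2, an extracellular calcium-binding protein (1.79), Cpsf4l (1.79), the carbonic anhydrase Car4 (1.53), Acss2, which makes acetyl-CoA from acetate (1.37), the thyroid hormone-binding Crym (1.15), the mitochondrial carrier Slc25a35 (1.04), Wfdc2 (0.79), Svopl (0.76) and Aqp5 (0.50), all given as log2 differences.

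Clu, Wfdc18 and Ltf fell. Clu (clusterin, an extracellular chaperone) was at 14.8, 17.1, 15.7 and 17.0 in positive cells and at 23.4, 46.6, 43.3 and 30.0 in negative cells (-1.19 ± 0.13, adjusted p = 0.000266). Wfdc18 was at 208, 213, 223 and 217 against 298, 308, 332 and 374 (-0.70 ± 0.09, adjusted p = 0.000869). Ltf was at 13.3, 9.26, 12.7 and 8.75 against 16.6, 31.3, 22.1 and 28.4 (-1.23 ± 0.18, adjusted p = 0.00161). The groups did not overlap for any of the 3.

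Further genes that fell were the interferon-induced Ifitm3 (-3.82), the galectin Lgals3 (-3.60), the tachykinin Tac4 (-2.63), the homeobox gene Meis2 (-2.03), the steroid reductase Srd5a2 (-1.68), the protease inhibitor Serpinb1a (-1.50) and Id1 (-1.44). Bpifb3 was at 0, 0, 0.0350 and 0 in positive cells and at 159, 15.8, 5.93 and 8.70 in negative cells (edgeR adjusted p = 8.87e-11). The 9 cells that held nearly all of its UMIs were all Acsm4-negative (4, 1, 2 and 2 in mice 1 to 4). This difference therefore rests on few cells, and in mouse 2 mainly on 1. Scgb1c1 fell by 0.63 on the log2 scale (adjusted p = 0.0121), but without the 9 cells rich in Bpifb3 its difference was -0.16 (adjusted p = 0.755), and without mouse 3 its adjusted p was 0.0937. Rgs5 (0.02, adjusted p = 0.976), Sox9 (-0.27, adjusted p = 0.352) and Sox10 (0.02, adjusted p = 0.984) did not pass. The standard errors of these 3 differences were 0.10, 0.13 and 0.16.

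Some markers of other cell types moved with the division. Of 7 mature neuron markers tested, 5 rose, against 1.40% of all genes tested (Omp by 1.49, edgeR adjusted p = 0.0176). The summed level of the 10 markers was 18.2 to 25.4 in positive and 3.56 to 16.8 in negative cells. The summed level of the 12 gland markers was 35.5 to 45.7 in positive and 51.7 to 72.8 in negative cells. The gland markers did not move as a set: of 5 tested, 1 rose (Aqp5) and 1 fell (Ltf). The summed level of the 9 immune markers was 0.0446 to 0.226 and 0.139 to 4.59. The part of these markers was not tested. Acsm4 itself had a UMI in 24.2% ± 4.2 of thinned mature neurons (28.9% unthinned), against 45.1% ± 5.3 of thinned Sus cells (54.3% unthinned). Without the cells of highest neuronal share, 133 genes passed, and of the 2 neuron markers then tested 0 passed. Those cells were removed by these same markers, so that the markers' failing to pass was nearly bound. Of 84 ribosomal protein genes, 36 fell, against 2.59% of all genes tested (median -0.37, against -0.01 over all genes). The number that fell was 47 with cells thinned to 5000 UMIs (median -0.51) or divided at the median Acsm4 share (-0.41), and 54 without thinning (-0.41). It was 3 without the 9 cells rich in Bpifb3 (-0.25), 13 without mouse 1 (-0.37), 2 without mouse 3 (-0.36), 5 without the block (-0.37) and 22 with DESeq2 (-0.37), and 0 without the 5% of cells with the most UMIs, where the median was -0.07. Of the 7 neuron markers, 0 passed at 5000 UMIs and without mouse 3, 1 without thinning or without the block, 2 with DESeq2 and 3 without mouse 1 or mouse 2. Of the 5 tested without the cells with the most UMIs, 0 passed. With the cells of highest neuronal share left out, Cyp2g1 (log2 difference 0.83), Cyp2a5 (0.89), Sult1c1 (1.60) and Gstm5 (1.02) passed.

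The count of calls depended on the fit. It was 82 without the mouse as a block, 56 with DESeq2 and 53 without the 5% of cells with the most UMIs. It was 101 without the 9 cells rich in Bpifb3, and 99, 98, 57 and 157 without mice 1, 2, 3 and 4. In place of 55 higher and 102 lower genes, there were 50 and 51 without the cells rich in Bpifb3 and 28 and 29 without mouse 3. Without mice 1, 2 and 4, there were 36 and 63, 36 and 62, and 62 and 95. Divided by Cbr2 in place of Acsm4, 16 genes passed (8 of them shared), and Cyp2g1 (0.23, adjusted p = 0.783) and Cyp2a5 (0.47, adjusted p = 0.122) did not. The 4 zonal genes tested did not move as 1 set: Sult1c1 passed, and Cbr2 (0.58 ± 0.17, adjusted p = 0.0857), Gstm2 (-0.23 ± 0.13, adjusted p = 0.458) and Nfix (-0.33 ± 0.17, adjusted p = 0.392) did not.

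**Figure D5:**
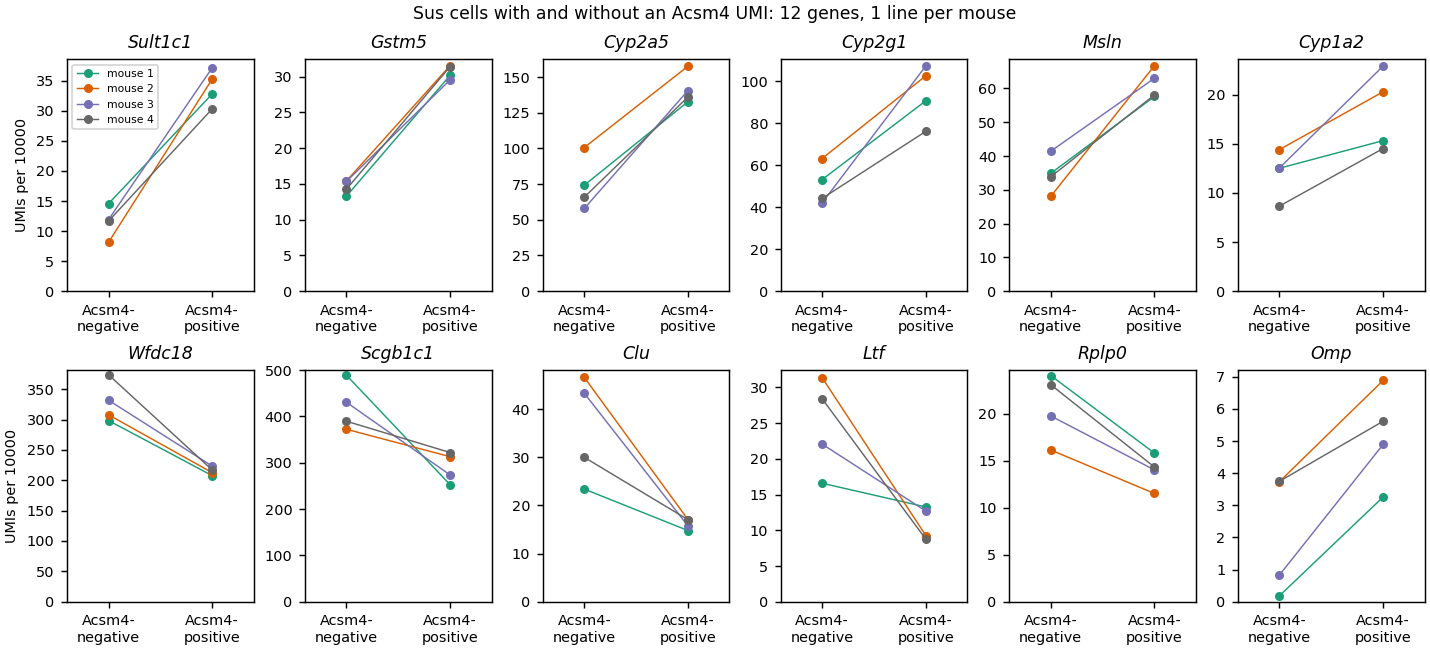
Level of 12 genes (UMIs per 10000, linear axis from 0) in Acsm4-negative and Acsm4-positive Sus cells, with 1 line per mouse. Sult1c1, Gstm5, Cyp2a5, Cyp2g1, Msln, Cyp1a2 and Omp rose in every mouse, and Wfdc18, Scgb1c1, Clu, Ltf and Rplp0 fell in every mouse.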

How the data were processed

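Libraries were made with the 10x Chromium 3′ gene expression kit, and the authors deposited unnormalised UMI counts, 1 matrix of genes by barcodes per mouse, made with Cell Ranger 6.0.1 (STAR, GRCm38, an Ensembl annotation with re-annotated 3′ ends of olfactory receptor genes). They also deposited a cell table with preliminary and final cluster names from Seurat. The authors had removed clusters of blood, immune and high-mitochondrial cells, then cells with over 10% mitochondrial UMIs or under 1000 genes. The 4 libraries held 23157467 to 32382702 UMIs in 4746 to 6003 barcodes, of which 3006 to 4657 were retained. No barcode shared by libraries was removed (54 of all barcodes, 26 of the retained cells).

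Counts were summed per mouse and label, and levels, folds and calls were computed as given with the results, for 10011 of 55511 genes with a mean of at least 0.1 UMIs per 10000 over the 10 types. A mouse in which Sus or the other types held no UMI entered a ratio with a floor of 3 counts per mouse. The replicate is the mouse, and the labels name 4 separate animals. The p-values rest on differences within mice and on how far these differences varied from mouse to mouse. No doublet caller was run. In its place, results were recomputed without the 5% of cells with the most UMIs (19 Sus cells) and without the Sus cells with the highest share of mature neuron markers (35 cells). The Acsm4 comparison used edgeR 4.0.16 (glmQLFit and glmQLFTest, TMM, filterByExpr, Benjamini-Hochberg) in R 4.3.3 on UMI sums, with the mouse as a block because both sums of a pair come from the same animal and library. On simulated counts for this comparison, 77.8% of genes changed 2-fold and 100% of those changed 4-fold were recovered (3860 and 3859 genes run). DESeq2 1.42.0 was an alternative. Other steps used Python 3.11.15, numpy 2.4.6, scipy 1.17.1, pandas 2.3.3 and matplotlib 3.10.9. Gene positions came from GENCODE M21 on GRCm38, with 55130 of 55511 gene IDs matched, and promoters from RefSeq on GRCm38.p6.

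The cells, lists and tests were chosen with earlier results of these data known. Genes named were the 3 label markers, the 25 leading genes other than receptors with the highest ratio to the highest other type at 1 UMI per 10000 or more, the 10 most abundant genes apart from mitochondrial and ribosomal protein genes, and for each list up to 4 higher genes by level, up to 2 lower genes by ratio and up to 3 that were neither. In the Acsm4 comparison they were the 12 of each direction with the smallest p among those of 1 direction in all 4 mice, and the zonal list. Other list members, the preliminary Sus cells within HBC2, the cells rich in Bpifb3 and the gene pairs were chosen after their values had been seen. A few members of the lists are not reported here by name.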

Additional observations from a re-analysis of the deposited data

Results flagged for a closer look

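Of 39 Sus levels checked for a mouse far from the other 3, 5 had one. At this 95% threshold chance alone sets off about 1 group in 20. Cpsf4l was at 0.9403 UMIs per 10000 in mouse 1 and at 1.63, 1.61 and 1.61 in mice 2 to 4. In the same mouse, Vmo1 was at 117.3, against 88.0, 86.9 and 90.1 in the other mice, Scgb1c1 was at 391.6, against 343, 347 and 349, and Tmsb4x was at 62.2, against 57.7, 57.7 and 57.8. Cyp2a5 was at 127.3 in mouse 2, against 97.6, 102 and 102 in mice 1, 3 and 4. With or without these mice, Cpsf4l, Vmo1, Scgb1c1 and Cyp2a5 were higher in Sus than the mean of the other types, and Tmsb4x was not.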

How the results depend on the processing

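The numbers of higher, lower and leading genes (471, 1898 and 100) were 107, 323 and 21 with a filter of 1 UMI per 10000, 743, 7754 and 165 with no filter, and 200, 875 and 35 with a ratio of 4 in place of 2, as these settings test or call fewer or more genes by construction. With the other types pooled by cells, 929 were higher. Without 1 mouse each, they ran from 487 to 502, 2037 to 2100 and 106 to 113. The remaining settings left these counts within 1.5 times. For the 185 genes chosen by rule, 344 of 2590 values moved by more than the spread between mice, 139 of them with the other types pooled by cells, 53 when thinned, 47 under TMM and 42 under DESeq2 size factors, and 9 reversed: pooled by cells, Il25 (log2 ratio 0.039), Sh2d6 (0.39), Fabp7 (0.78), Dcn (0.15) and Egr1 (0.23); thinned to 3000 UMIs, Cyp4b1 (0.38) and Fabp7 (1.58); and without the HBC2 cells of the preliminary Sus cluster, an alternative added after seeing the data, Sec14l3 (0.091) and Cyp4b1 (0.23). Cyp4b1 and Fabp7 had 1 UMI in Sus, so their values rest on the floor of 3 counts in the mice without one and are no measured reversals. For the others the cause was not tested. The log2 ratio of detected genes in Sus was -0.04, and 0.01 (0.0119) against mature neurons only.

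The Acsm4 comparison called 157 genes, 315 with no filter on low counts, 53 without the 5% of cells with the most UMIs, 56 with DESeq2 and 101 without the cells rich in Bpifb3 (added after seeing the data). Without the mouse as a replicate block it called 82, all among the 157. Leaving out 1 mouse gave 57 to 157, the lowest without mouse 3, with 52 shared. Divided by Cbr2 in place of Acsm4, 16 genes passed, and Lgals3 (1.22), Ltf (0.36), Serpinb1a (0.53), Nfix (0.079) and Omp (-1.85) changed sign. Gstm2 did so at 5000 UMIs (0.11) and without thinning (0.0053). The cause was not tested. A division by Nqo1 was not run, because too few Sus cells held a UMI of it. Depth limits genes near 0, where a count of 0 over the 4 mice allows up to 0.0138 UMIs per 10000.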

Other observations

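Olfactory receptor genes were low in Sus. Of 28 receptor genes (Olfr and Taar) that passed the filter on low levels, 25 were lower than the mean of the other types in each mouse, against 19.0% of all genes tested. All but Olfr285 passed the filter through their levels in other types, so that a lower call was nearly bound. None of the 100 leading genes was a receptor.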
